A study of Mus musculus with 2 samples.

Results

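The genes of bone morphogenetic protein (BMP), transforming growth factor beta (TGF-beta) and Nodal signalling were examined in primordial germ cells (PGCs) of the mouse embryo, from which eggs and sperm arise. The set was a list of 49 gene symbols of ligands, receptors, Smads, antagonists and targets. A gene was a member if its symbol matched a row of the expression table exactly, which gave 42 members among the 18877 genes of the table. Bmpr1b, Grem1, Inhba, Tgfb1, Tgfb3, Tgfbr2 and Zeb2 had no matching row and were not analysed here.

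RNA-seq of untreated PGCs at embryonic day 9.5 (E9.5) from the C57BL6 strain gave 2 libraries of 1 group. They are called replicate 1 and replicate 2 here, as in their titles. The study compared these PGCs with germ cell-like cells made from stem cells, in the whole transcriptome, early PGC markers, imprinted genes and X-linked genes. The design text calls the 2 libraries biological repetitions, and no source used here says whether embryos were pooled. The methods describe female embryos and sorting by antibodies to SSEA1 and CD61 or by magnetic beads with an antibody to SSEA1, a surface antigen of PGCs, while the labels name only the antibody to SSEA1. The methods name Smart-seq2, which amplifies full-length cDNA from few cells, and the labels name another library kit, so the chemistry is uncertain.

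Ligands of this family bind pairs of type I and type II receptor kinases, which phosphorylate receptor-activated Smads (R-Smads). Smad1, Smad5 and Smad9 act for BMPs, and Smad2 and Smad3 for TGF-beta, Nodal and activin. Either kind joins the common partner Smad4 and enters the nucleus, where BMP signalling is known to activate the Id genes. In the mouse, Bmp4 and Bmp8b from extraembryonic ectoderm are required to set PGC precursors aside in the epiblast, before the stage measured here.

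The sequences below come from promoters of Id genes, well-known BMP targets, and of type I receptors, and they show what 2 short Smad-related motifs look like beside genes detected in both libraries. RefSeq windows on GRCm38.p6, running from 250 bases before to 50 bases after a transcription start, were found for 28 of the 42 members (35 windows). Windows were searched on both strands for GGCGCC, a palindrome at the core of BMP-responsive elements, and for CAGAC, an element bound by Smad3 and Smad4. These strings can share no more than 1 end letter. Capitals mark the motif, or its reverse complement, and each stretch is written 5′ to 3′ on the strand of the gene.
Id2, chr12:25096306-25096335, minus strand: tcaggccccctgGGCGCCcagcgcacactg
Id4, chr13:48260956-48260985, plus strand: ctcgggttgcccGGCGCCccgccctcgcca
Bmpr1a, chr14:34502727-34502756, minus strand: tgcgcgcgcgccGGCGCCtcttgctcgccc
Tgfbr1, chr4:47352977-47353006, plus strand: ggctggagtaaaGGCGCCcagcggtgaggg
Id3, chr4:136143643-136143671, plus strand: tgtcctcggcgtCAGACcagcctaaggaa
Id3, chr4:136143742-136143770, plus strand: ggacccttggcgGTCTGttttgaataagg
The Id3 window held the Smad3 and Smad4 element on either strand and not the BMP-responsive core, whereas the Id2 and Id4 windows held the core and not the element. The Id2, Id3 and Bmpr1a stretches lie inside the gene spans given below. The RefSeq starts used for these genes lie downstream of the starts of those spans.

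The core was present in a window of 11 of the 28 members (39.3%), compared with 23.5% of the 10839 genes of the expression table that had a window and 13.4% of all 27025 genes with a window. The 11 were Acvr1b, Bmpr1a, Bmpr2, Chrd, Id2, Id4, Ski, Smad5, Smad9, Smurf2 and Tgfbr1. The element was present for 14 of 28 members (50%), compared with 52.0% of table genes and 53.2% of all genes. The members' windows were rich in G and C, at a median of 66.3% against 60.0% in windows of the table's genes and 52.7% in all windows. The part of base composition in the count of the core was not tested, and a match is a string of letters and no evidence of binding. Bambi, Bmp2, Bmp7, Foxh1, Fst, Id1, Lefty1, Lefty2, Nog, Skil, Smad2, Smad4, Smad7 and Tgfbr3 had no window matched.

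Levels are TPM, a relative abundance corrected for gene length and scaled to the same total in every library. Means are given ± SD over the 2 libraries (n = 2), and medians of lists are on the log2(TPM + 1) scale. Reads per gene could be recovered from TPM and exon length, and replicate 1 was the deeper library, with 15912470 reads against 5458687. Intervals are exact Poisson 95% intervals from those reads, which cover counting error only and not variation between embryos. They treat every read as an independent count, so copies made by amplification would make them too narrow. A difference called beyond counting error below means only that these intervals did not overlap. For Smad2, Bambi, Fst and Chrd the product of TPM and length was not within 0.02 of a whole read number in both libraries, so their TPM is given without reads. With 1 group there was no comparison between conditions and no test, and where the libraries differ, the statement is about these libraries alone.

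All 11 listed PGC markers were above 1 TPM in both libraries, from Prdm1 at 6.98 ± 1.22 TPM to Dppa3 at 5044 ± 44.1 TPM. Pou5f1, named here after its value was seen, was low at 1.54 and 1.46 TPM on 33 and 11 reads. Sequence that Pou5f1 shares with other genes was not counted, and the treatment of such reads is not stated. Markers of other cells were also present. Listed markers without a row were left out of the counts below: Alas2 (erythroid), Adgre1 (macrophage), Sox1 (neural), Cdh5 (endothelial), Prrx1 (mesenchyme) and Sox17 (endoderm). Of 6 erythroid markers 5 were detected, with summed levels of 3983 and 3765 TPM, of 4 macrophage markers 3 were detected (19.4 and 9.53 TPM), and of 3 neural markers all were (6.41 and 7.05 TPM). Fewer passed in the endothelial list (1 of 5, 12.9 and 11.0 TPM), the mesenchymal list (1 of 5, 2.37 and 3.95 TPM, Lum at 0), the gut and visceral endoderm list (1 of 5, 2.57 and 7.96 TPM, Foxa1 at 0) and the coelomic epithelium list (2 of 5, 3.91 and 3.99 TPM). The endothelial marker that passed was Pecam1, named after its value was seen, which gave 8.23 and 9.99 TPM of those sums. In such bulk libraries fewer cells of a type and less RNA per cell cannot be told apart. The part of these cells in the levels below was not tested.

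Detection was described first. Of the 42 members, 29 reached 1 TPM in both libraries (69.0%), beside 60.0% of all genes, a share not far from the background, and 15 did at 5 TPM. A further 4 reached it in 1 library only (Eng, Smad6, Smurf1 and Tgfb2), and 9 stayed under it in both. Few members were abundant: 7 reached 10 TPM in both libraries (16.7%), beside 25.3% of all genes. These 7 were Skil, Id3, Id1, Lefty2, Smad4, Smad2 and Bmpr1a. Bmp2 and Nog were listed at 0 in both libraries (2 of 42, 4.76%), beside 7.81% of all genes.

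The median of the members was 2.22 in replicate 1 and 2.0 in replicate 2 (mean 2.11 ± 0.153), and the median of all genes was 1.89 and 1.85 (mean 1.87 ± 0.0282). The difference of 0.24 ± 0.125 changed sign, to -0.23, when members and all genes were limited to a mean TPM of at least 1. Ordered by mean TPM, they made 41 neighbouring pairs, of which 8 kept every value of the higher gene above every value of the lower one in both libraries. The order Skil, Id3, Id1, Lefty2 was among the separated pairs, and from Acvr2a down to Nodal no neighbours were separated.

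**Figure D1:**
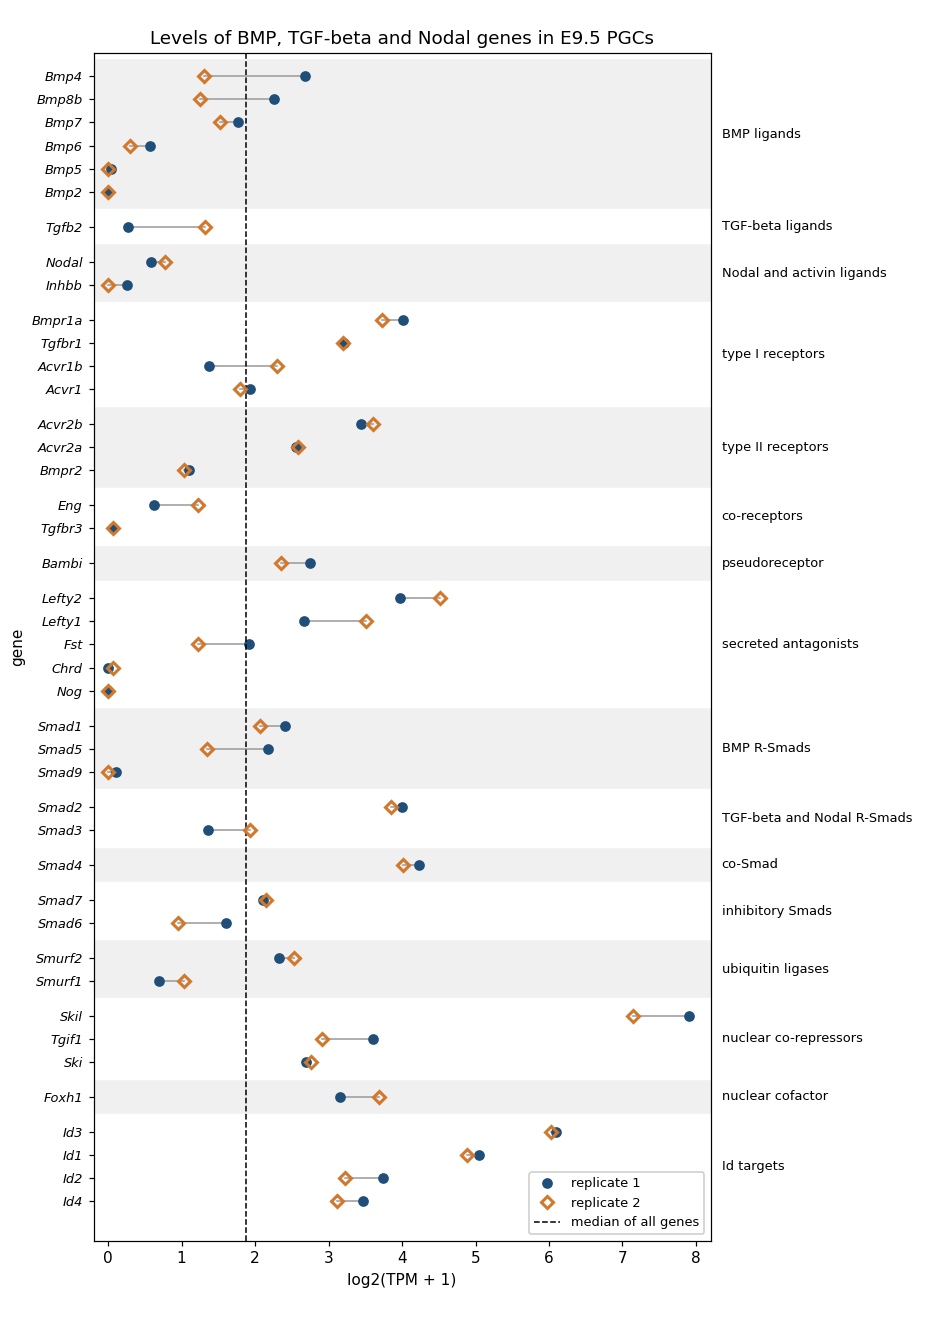
Each row is a member, ordered by role, and the horizontal axis is log2(TPM + 1). Filled circles are replicate 1, open diamonds replicate 2, and the dashed line is the median of all genes (1.87). Skil lies to the right of every other member, all 4 Id genes are to the right of the line in both libraries, and BMP, TGF-beta and Nodal ligands lie mostly to its left.

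**Figure D2:**
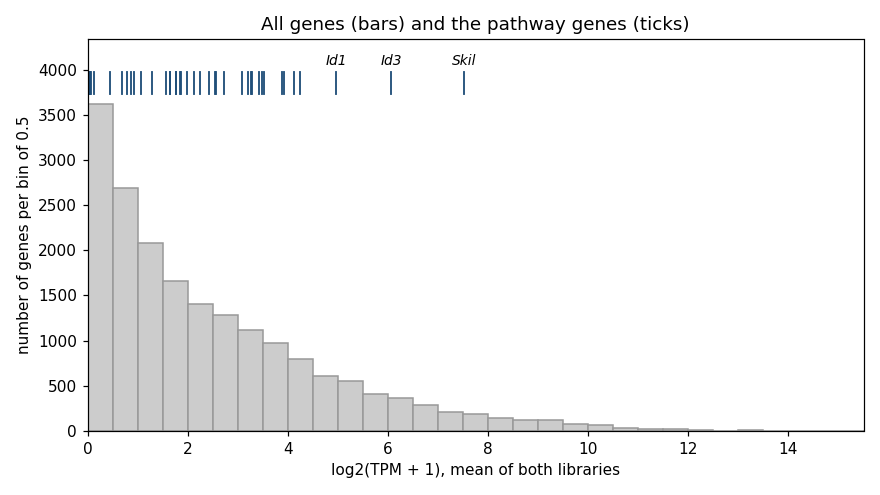
Bars count all 18877 genes by mean log2(TPM + 1) in bins of 0.5, and ticks above them mark the 42 members. The ticks span the range from 0 up to Skil at 7.53, with Id1 at 4.96 and Id3 at 6.06 labelled, and most sit where the bars are tall.

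Ligand transcripts were scarce. Of 9 ligands with a row, 3 reached 1 TPM in both libraries, all of them BMPs, and the summed ligand level was 13.0 TPM in replicate 1 and 7.15 TPM in replicate 2. Bmp4, an inducer of the germline (chromosome 14, 46383520 to 46390669), was the highest ligand by mean. It stood at 5.43 TPM in replicate 1, on 116 reads, and at 1.46 TPM in replicate 2, on 11 reads (mean 3.45 ± 2.80 TPM). The intervals, 4.49 to 6.51 TPM and 0.731 to 2.62 TPM, did not overlap, so the libraries differed by more than the counting error these intervals cover.

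Bmp8b, which acts with Bmp4 in PGC formation (chromosome 4, 123105165 to 123132099), was at 3.80 TPM in replicate 1 and 1.39 TPM in replicate 2 (mean 2.59 ± 1.70 TPM, 140 and 18 reads). As for Bmp4, replicate 2 was lower and the intervals did not overlap. Its value carries an uncertainty of annotation: 3.43% of its exonic bases are shared with Ppie on the opposite strand, which was at 17.7 and 9.40 TPM, the strand setting of the counting is not stated, and 2.70% of its windows of 100 bases occur also in its paralogue Bmp8a. Bmp7, a BMP with broad embryonic expression, was at 2.41 and 1.86 TPM (mean 2.13 ± 0.387 TPM, 92 and 25 reads), with overlapping intervals.

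The other BMPs were close to the detection limit. Bmp6 was at 0.486 TPM on 18 reads and 0.230 TPM on 3 reads. Bmp5 had 1 read in replicate 1 and none in replicate 2, and 46.7% of its exonic bases overlap an antisense gene. Bmp2, whose product acts through the same receptors as Bmp4, had no read in either library. With 3 reads taken as the limit, a count of 0 allows a level of 0.0888 TPM in replicate 1 and of 0.252 TPM in replicate 2.

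Ligands of the other branch were also scarce, none of them reaching 1 TPM in both libraries. Tgfb2, the only TGF-beta with a row, was at 0.20 TPM (11 reads) in replicate 1 and 1.498 TPM (29 reads) in replicate 2. Its mean was 0.849 ± 0.918 TPM, and the shallower library held more reads of it than the deeper one. Nodal, the ligand that maintains pluripotency in the epiblast, was at 0.502 and 0.714 TPM on 10 and 5 reads (mean 0.608 ± 0.150 TPM). Inhbb, a subunit of activin B and inhibin B, had 8 reads in replicate 1 (0.198 TPM) and none in replicate 2.

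Among secreted antagonists the Nodal inhibitors Lefty2 and Lefty1 stood out from the BMP inhibitors. Lefty2 (chromosome 1, 180893108 to 180899103) was the fourth highest member by mean TPM (18.3 ± 5.18 TPM). It stood at 14.7 TPM in replicate 1, below Smad4, Bmpr1a and Smad2, and at 22.0 TPM in replicate 2 (364 and 192 reads). Lefty1 (chromosome 1, 180935022 to 180938400), which begins 35918 bases beyond the end of Lefty2, was at 5.33 and 10.4 TPM (mean 7.85 ± 3.57 TPM, 89 and 61 reads). Both were higher in replicate 2, with intervals that did not overlap. Lefty2 held 73.4% and 67.9% of the summed TPM of the pair, and it exceeded Nodal 29.2-fold and 30.8-fold. The paralogues share sequence in 7.43% of Lefty1 windows and 5.17% of Lefty2 windows of 100 bases, so a small part of either value could belong to the other.

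The BMP antagonists Nog and Chrd, which bind BMPs and keep them from their receptors, were at or near 0. Nog was listed at 0 in both libraries, which allows up to 0.186 and 0.529 TPM. Chrd was listed at 0 in replicate 1 and at 0.0512 TPM in replicate 2. Fst, encoding the activin-binding protein follistatin, was at 2.77 and 1.33 TPM (mean 2.05 ± 1.02 TPM).

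The receptor kinases were all detected, apart from Bmpr1b and Tgfbr2, which had no row. All 4 type I and all 3 type II receptors with a row reached 1 TPM in both libraries, and their summed levels were 43.7 and 44.0 TPM. Bmpr1a, the BMP type I receptor also called ALK3 (chromosome 14, 34410734 to 34503341), was the highest at 15.2 TPM in replicate 1 and 12.2 TPM in replicate 2 (mean 13.7 ± 2.09 TPM, 918 and 260 reads). Replicate 2 was lower, with intervals of 14.2 to 16.2 TPM and 10.8 to 13.8 TPM that did not overlap. Bmpr1a is the receptor whose promoter stretch was shown above, and Tgfbr1 is the other.

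Tgfbr1, the TGF-beta type I receptor ALK5 (chromosome 4, 47353222 to 47414931), was nearly the same in both libraries, at 8.24 and 8.19 TPM (mean 8.22 ± 0.0346 TPM, 512 and 179 reads). Acvr1, the BMP receptor ALK2, was at 2.81 and 2.48 TPM (mean 2.64 ± 0.235 TPM, 129 and 40 reads). Acvr1b, the receptor ALK4 used by Nodal and activin, was at 1.60 TPM in replicate 1 and 3.93 TPM in replicate 2 (mean 2.76 ± 1.65 TPM, 67 and 58 reads). It was the one type I receptor whose level was higher in replicate 2 beyond counting error. Within the class, Bmpr1a held 54.6% and 45.6% of the summed TPM and Tgfbr1 29.6% and 30.5%.

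Among type II receptors, the activin receptors were higher than the BMP receptor. Acvr2b (chromosome 9, 119402118 to 119434995) was at 9.83 and 11.1 TPM (mean 10.5 ± 0.911 TPM, 367 and 146 reads), and Acvr2a at 4.87 and 5.0 TPM (mean 4.93 ± 0.0931 TPM, 263 and 95 reads). Both bind several ligands of the family, BMPs among them. Bmpr2, the dedicated BMP type II receptor (chromosome 1, 59763400 to 59879014), was at 1.13 and 1.05 TPM (mean 1.09 ± 0.0615 TPM, 194 and 63 reads). Its summed exon length is 17983 bases, against 3928 for Acvr2b and 5686 for Acvr2a, so the gap is smaller in reads than in TPM. The part of this length in the shares was not tested. The shares of the 3 genes were 62.1% and 64.8% for Acvr2b and 7.17% and 6.11% for Bmpr2, and their order was the same in both libraries. A part of Acvr2a, 7.84% of its exonic bases, overlaps Orc4 on the opposite strand, which was at 76.3 and 62.0 TPM.

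The co-receptors among the members, Eng and Tgfbr3, were at lower levels than the pseudoreceptor. Eng, endoglin, a co-receptor best known from endothelium, was at 0.546 and 1.33 TPM on 21 and 18 reads. Tgfbr3, betaglycan, was at 0.0482 and 0.0457 TPM on 3 reads and 1 read. Bambi, which resembles a type I receptor without a kinase and dampens signalling, was at 5.70 and 4.10 TPM (mean 4.90 ± 1.13 TPM).

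Of the 8 Smads, 6 were detected in both libraries, and the Smads for both branches were present. Smad4, the common partner, was the highest at 17.9 and 15.1 TPM (mean 16.5 ± 1.97 TPM, 630 and 187 reads). Smad2, which carries TGF-beta, Nodal and activin signals, followed at 15.0 and 13.4 TPM (mean 14.2 ± 1.11 TPM). Its partner Smad3 (chromosome 9, 63646767 to 63757994) was lower, at 1.58 TPM in replicate 1 and 2.81 TPM in replicate 2 (mean 2.19 ± 0.870 TPM, 83 and 52 reads). Smad2 thus made up 90.5% and 82.7% of the summed TPM of these 2 genes.

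The BMP R-Smads were at lower levels than Smad2. Smad1 (chromosome 8, 79338395 to 79399518) was at 4.30 and 3.20 TPM (mean 3.75 ± 0.778 TPM, 256 and 67 reads). Smad5 (chromosome 13, 56703010 to 56742377) was at 3.50 TPM in replicate 1 and 1.53 TPM in replicate 2 (mean 2.52 ± 1.39 TPM, 247 and 38 reads), with intervals that did not overlap. Smad9, the third BMP R-Smad, had 4 reads in replicate 1 and none in replicate 2. The BMP share of R-Smad TPM was 32.3% in replicate 1 and 22.6% in replicate 2 (mean 27.4% ± 6.83), and the share of Smad2 alone was 61.3% and 64.0%. Smad2 exceeded Smad1 3.48-fold and 4.19-fold.

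The inhibitory Smads, which are induced by the pathway and block it, lay on either side of the median of all genes. Smad7, which acts on both branches, was at 3.33 and 3.44 TPM (mean 3.38 ± 0.0799 TPM, 143 and 52 reads). Smad6, which acts mainly on BMP signals, was at 2.04 and 0.933 TPM (mean 1.48 ± 0.779 TPM) on 62 and 10 reads. Smad7 was above that median in both libraries and Smad6 below it. The intervals of Smad6 overlapped.

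**Figure D3:**
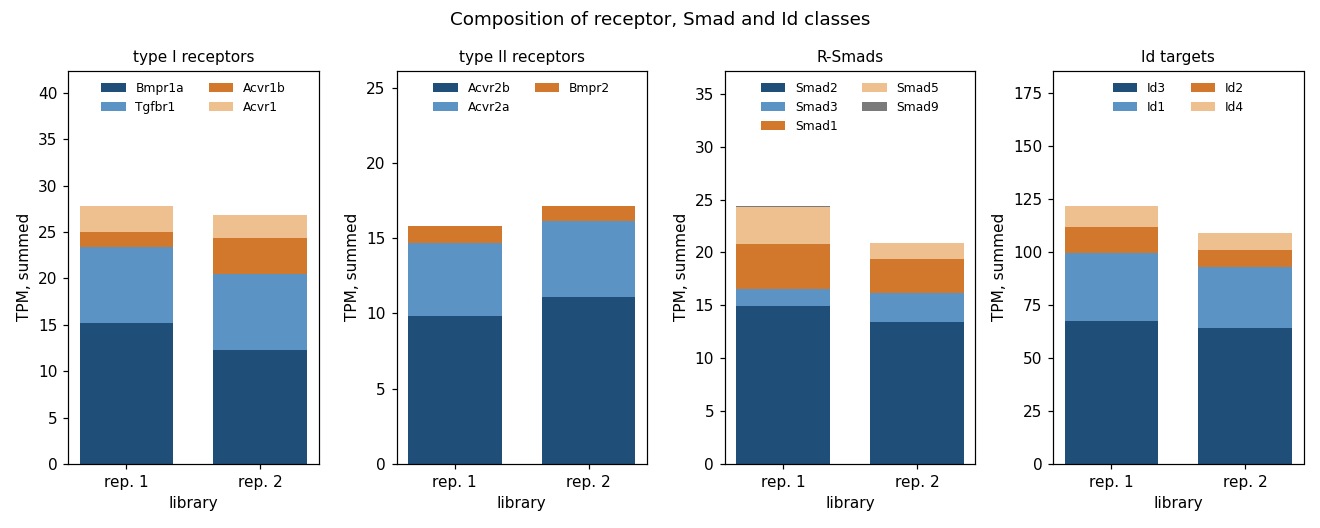
Stacked bars give the summed TPM of the type I receptors, type II receptors, R-Smads and Id genes in each library, from 0, with 1 colour for each gene. Bmpr1a, Acvr2b, Smad2 and Id3 take the largest part of their class in both libraries, and the Smad5 segment is thinner in replicate 2.

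As groups, receptors and Smads were higher than ligands and secreted antagonists. The median of the 17 receptors, co-receptors and Smads was 2.11 and 2.07, and that of the 14 ligands and secreted antagonists was 0.58 and 1.0. The difference was 1.53 in replicate 1 and 1.07 in replicate 2 (mean 1.30 ± 0.327). It was smaller, at 0.32, when members under a mean of 1 TPM were left out.

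Nuclear co-repressors held the highest member. Skil, which encodes SnoN, a repressor of Smad-driven transcription (chromosome 3, 31095058 to 31122577), was at 239 TPM in replicate 1 and 140.4 TPM in replicate 2 (mean 189.9 ± 70.0 TPM). Its value rested on 22059 and 4549 reads, and the intervals of 236 to 243 TPM and 136 to 145 TPM were far apart. Skil alone made up 45.7% and 34.2% of the summed TPM of all members. Its relative Ski (chromosome 4, 155154075 to 155222592) was at 5.47 and 5.81 TPM (mean 5.64 ± 0.242 TPM, 289 and 108 reads), which Skil exceeded 43.8-fold and 24.2-fold.

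Tgif1, a homeodomain protein that represses Smad2 targets (chromosome 17, 70844205 to 70853546), was at 11.2 and 6.49 TPM (mean 8.84 ± 3.32 TPM, 598 and 122 reads). Like Skil it was lower in replicate 2 beyond counting error. Foxh1, the DNA-binding partner of Smad2 and Smad4 in Nodal signalling (chromosome 15, 76668225 to 76669948), was at 7.94 and 11.8 TPM (mean 9.89 ± 2.75 TPM, 103 and 54 reads). Of the ubiquitin ligases that degrade Smads and receptors, Smurf2 was above the median of all genes in both libraries and Smurf1 below it, with Smurf2 at 4.03 and 4.76 TPM (mean 4.39 ± 0.515 TPM, 236 and 98 reads) and Smurf1 at 0.614 and 1.04 TPM on 37 and 22 reads.

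All 4 Id genes, which encode helix-loop-helix proteins without a DNA-binding part, were expressed, with a median of 4.39 and 4.06 (mean 4.22 ± 0.237). Id3 (chromosome 4, 136143497 to 136145755) was the second highest member at 67.5 and 64.1 TPM (mean 65.8 ± 2.41 TPM, 1150 and 384 reads). Id1 (chromosome 2, 152736251 to 152737410) followed at 31.9 and 28.6 TPM (mean 30.3 ± 2.33 TPM, 352 and 111 reads). Both varied little between libraries, and together they held 81.6% and 85.3% of Id TPM. Id3 exceeded Id1 2.12-fold and 2.24-fold.

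Id2 and Id4 were lower. Their promoter windows held the BMP-responsive core, but Id1 had no window, and sequence outside the windows was not searched. A relation of motif to level was not tested. Id2 (chromosome 12, 25093799 to 25097140) was at 12.4 and 8.34 TPM (mean 10.4 ± 2.86 TPM, 287 and 68 reads), with intervals that did not overlap. Id4 (chromosome 13, 48261228 to 48266026) was at 10.03 and 7.69 TPM (mean 8.86 ± 1.65 TPM, 367 and 99 reads), with intervals that overlapped. Their neighbours in the order of levels were Acvr2b, Foxh1 and Tgif1, from which they did not differ beyond the spread of the libraries.

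Between libraries, 3 members differed over 2-fold on the log2(TPM + 1) scale (7.14%), beside 10.2% of all genes. With a pseudocount of 0.1 in place of 1 the count was 9, since the larger pseudocount compresses low values. Bmp4 (-1.38) and Bmp8b (-1.01) were lower in replicate 2, and Tgfb2 (1.06) was higher. Of the 38 members with recovered reads, 12 had intervals that did not overlap (31.6%), beside 23.9% of all genes with recovered reads. In replicate 2, 7 of these were lower (Skil, Bmpr1a, Id2, Tgif1, Bmp4, Bmp8b and Smad5) and 5 were higher (Lefty2, Lefty1, Acvr1b, Smad3 and Tgfb2). The median difference over the members, replicate 2 minus replicate 1, was -0.07, and over all genes -0.01.

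Sorted by branch of the pathway, the differences between libraries lay mostly in opposite directions. Members were assigned to branches by textbook role after their values had been seen, so the counts below are a description, depend on that assignment and carry no test. Of 17 BMP members (ligands, Bmpr1a, Acvr1, Bmpr2, Smad1, Smad5, Smad9, Smad6 and the Id genes), 16 were lower in replicate 2, none was higher, and Bmp2 was at 0 in both. Of 10 TGF-beta and Nodal members (Tgfb2, Nodal, Inhbb, Acvr1b, Tgfbr1, Lefty1, Lefty2, Smad2, Smad3 and Foxh1), 7 were higher in replicate 2 and Tgfbr1, Smad2 and Inhbb were lower. Over all genes, 51.3% were lower and 40.9% higher. The BMP antagonists Nog and Chrd, the activin-binding Fst and the Smad2 repressor Tgif1 were left among the other members. With Nog and Chrd counted as BMP members, 16 of 19 were lower and 1, Chrd, was higher. With Tgif1 and Fst counted as TGF-beta and Nodal members, 7 of 12 were higher and 5 lower.

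The median difference was -0.27 for BMP members and 0.54 for TGF-beta and Nodal members. Beyond counting error, 5 of 17 BMP members were lower and none was higher. Of 9 TGF-beta and Nodal members with recovered reads, 5 were higher and none was lower. Tgif1, counted with them, would be 1 that was lower. Skil, a Smad repressor left among the other members, was also lower beyond counting error. Smurf1 and Eng, left there too, were higher in replicate 2 with overlapping intervals. Placing Skil, Smurf1 or Eng in a branch was not tried. The companions Gdf3 and Cfc1, of Nodal signalling and described below, were also lower in replicate 2 beyond counting error. Of 40 companions with recovered reads, 7 were lower and 2 higher beyond counting error. The BMP co-receptor Rgma, named after its value was seen, was among the higher, at 0.152 TPM (8 reads) and 0.701 TPM (13 reads). Its relative Rgmb, named in the same way and without recovered reads, was at 2.28 and 3.64 TPM. Both ran against the direction of the BMP members. Of all 49 companions with a row, 28 were lower in replicate 2 and 19 higher. Over all genes with recovered reads, 14.4% were lower and 9.55% higher beyond counting error. Several of the 16 were small differences, such as Id3 at -0.07 and Bmpr2 at -0.06, and Bmp5 and Smad9 rested on 1 and 4 reads. Of the 15 other members, 6 were lower and 8 higher, and the 2 lower beyond counting error were Skil and Tgif1.

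The libraries also differed in depth and in markers of other cells. Summed macrophage markers were lower in replicate 2, and summed gut and visceral endoderm and mesenchyme markers higher. Single markers did not all follow their sums: Afp, of the endoderm list, had 27 reads in replicate 1 and none in replicate 2, and the endothelial markers Emcn (109 reads and none) and Kdr (73 and 5 reads) were lower beyond counting error while Pecam1 was at 8.23 and 9.99 TPM. These 4 markers were named after their values were seen. The part of such cells in the difference by branch was not tested.

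**Figure D4:**
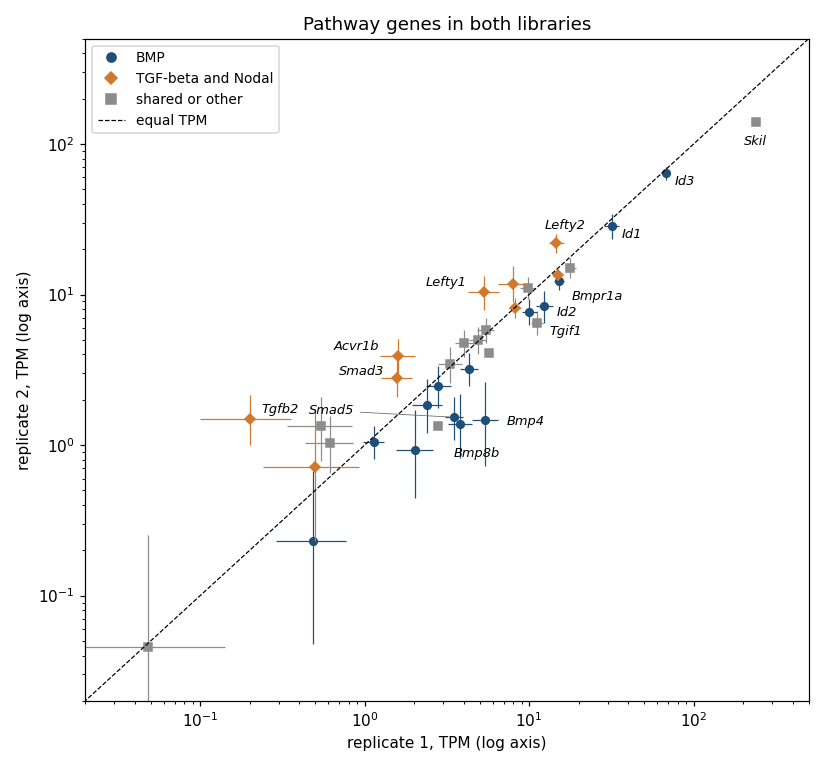
TPM in replicate 1 (horizontal) and replicate 2 (vertical), both on log axes, for the members above 0 in both libraries, with Poisson 95% intervals as bars where reads were recovered and intervals reaching the edge cut off there. Points on the dashed line have equal TPM. The BMP members (circles) lie on or below the line, and 5 of the TGF-beta and Nodal members (diamonds), Tgfb2, Acvr1b, Smad3, Lefty1 and Lefty2, lie above it with intervals that do not overlap.

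Other genes of the pathway, from a companion list of 81 symbols, gave 49 genes with a row, of which 32 reached 1 TPM in both libraries, beside the 60.0% of all genes. Detection differed by role, with 18 of 19 intracellular regulators, 4 of 5 receptors and co-receptors, 5 of 8 targets, 3 of 11 extracellular modulators and 2 of 6 ligands. The highest were Strap (86.8 ± 5.94 TPM), which stabilises Smad7 at the receptor, and Fkbp1a (51.3 ± 1.72 TPM), which keeps type I receptors inactive without ligand. They were followed by the co-repressor Tgif2 (23.6 ± 0.404 TPM), the ubiquitin ligase Stub1 (21.7 ± 1.60 TPM) and the target Hey1 (21.5 ± 2.97 TPM). The next was Fstl1 (18.7 ± 0.545 TPM), a secreted relative of follistatin. Crebbp (12.1 ± 1.28 TPM), a histone acetyltransferase, and Trim33 (10.8 ± 0.626 TPM), a ligase that binds Smads, closed the 10 highest. Inha, the alpha subunit of inhibins, was listed at 0 in both libraries.

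The remaining members of the 10 highest belong to Nodal signalling. Tdgf1, the Nodal co-receptor Cripto, was at 14.2 and 13.3 TPM (mean 13.8 ± 0.633 TPM, 355 and 117 reads). Gdf3, a Nodal-related ligand, was at 15.8 TPM in replicate 1 and 9.63 TPM in replicate 2 (mean 12.7 ± 4.37 TPM, 364 and 78 reads), with intervals that did not overlap. Gdf3 was therefore above every ligand among the members, and its difference between libraries ran against that of Lefty1 and Lefty2 and of the TGF-beta and Nodal members as a group. Cfc1, the other co-receptor of this kind and named here after its value was seen, ran the same way as Gdf3, at 7.69 TPM on 76 reads and 2.30 TPM on 8 reads.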

How the data were processed

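RNA-seq of the 2 E9.5 PGC libraries was used. The authors mapped clean reads to mm10 (Hisat2), assigned them to genes (featureCounts) and deposited TPM. The submitters' processing notes also list Bowtie2, RSEM, DESeq2 and R 3.4.2, without their roles. Other versions, the annotation, the strand setting and the treatment of reads shared by several genes are not given in the sources used here. TPM is relative, so abundant or very short genes lower all others. The columns summed to 998792 and 998955 TPM, and there were 0 columns of other samples.

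TPM was multiplied by the summed exon length of GENCODE M21 (GRCm38, the assembly of mm10; 18748 genes matched by symbol), and the amount worth 1 read was found by a grid search. Among values under 50 reads, 96.7% and 95.8% came within 0.02 of a whole number. Tested on simulated data for 18748 genes, the search recovered the exact read count of 100% of the genes. The simulation used the same exon lengths as the search, so it cannot show whether the authors' annotation had other lengths. Reads gave exact Poisson 95% intervals and the limit of a zero (3 reads), and they cover counting error only. No molecular identifiers are stated, so amplified copies of a molecule may count as separate reads and the intervals may be too narrow. Medians and differences were taken on log2(TPM + 1), which makes differences of low genes look smaller than they are. Detection was a TPM of at least 1 and a 2-fold difference was 1 on that scale. Shared sequence was counted in windows of 100 exonic bases.

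The members, the companion and marker lists and the summaries were chosen with earlier results of these data known. The text names every member with a row, the 10 highest companions and those at 0. Of the markers it names the highest and lowest PGC marker and those at 0 or without a row. Pou5f1, Cfc1, Rgma, Rgmb, Afp, Emcn, Kdr and Pecam1 were named after their values were seen. The value of 1 gene that the rule covers is not reported here. No test was made, because there was 1 group. Alternatives were a pseudocount of 0.1, another scaling, a filter on mean TPM, detection at 0.5 or 5 TPM, thinning, another assignment to branches, leaving out genes under 200 exonic bases and leaving out each replicate. Python 3.11.15, numpy 2.4.6, pandas 2.3.3, scipy 1.17.1 and matplotlib 3.10.9 were used.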

Additional observations from a re-analysis of the deposited data

How the results depend on the processing

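Across 9 results, 33 alternatives that left out no replicate were computed, of which 25 moved the value by less than the spread between libraries, or a count by at most 1.5 times. At a detection threshold of 5 TPM, 15 members were detected in both libraries in place of 29. The median level of the members, 2.11, became 1.77 with a pseudocount of 0.1, 2.68 among genes with a mean TPM of at least 1, and 2.27 without genes under 200 exonic bases. Its difference from the median of all genes, 0.24, became -0.23 with the filter on mean TPM. The difference between receptors with Smads and ligands with antagonists, 1.30, became 2.07 with a pseudocount of 0.1 and 0.32 with the filter. Members over 2-fold apart numbered 9 in place of 3 with a pseudocount of 0.1. The causes were not tested. Leaving out a replicate, which with 2 libraries cannot move a mean by as much as their SD and so says nothing of stability, placed the detected members between 30 and 32, the median level between 2.0 and 2.22, and the BMP share of R-Smad TPM between 22.6% and 32.3%. The counts by branch and their alternatives were chosen after seeing the data: 13 to 16 BMP members were lower in replicate 2 (16 as reported), and 5 to 8 TGF-beta and Nodal members higher (7 as reported). The lowest counts, 13 and 5, came with the filter on mean TPM, which left fewer members in each branch. The branches held 17 and 10 members as reported, and 19 and 12 with the wider assignment. Drawing down the reads of replicate 1 was among the alternatives, but it leaves the expected TPM unchanged and bears only on genes with few reads. Depth limits the low genes: 8 members had under 10 reads in replicate 2, and 10 had at least 100 in both. No paired analysis was possible because there was 1 group.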
